A study of Mus musculus with 19 samples.

Results

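A list of 43 genes that mark T cells or carry the signal of their antigen receptor was followed in whole mouse spleens. Members were chosen by symbol, and a member was read where a probe set carried its symbol alone. By that rule 40 of the 43 were measured, out of 22180 genes in all, and Cd247, Lck and Tcf7 were not analysed here. Where a member had more than 1 probe set, the one with the highest mean over the 19 arrays was taken, which mattered for Camk4 and Gata3.

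RNA of total spleen was measured on 1 Affymetrix array per animal, in mice that lived in a conventional facility and met common pathogens. The groups were tumour-bearing spleens of Rosa26-HGAL+Aid-Cre mice (n = 4), of Rosa26-HGAL+Mb1-Cre mice (n = 5) and of Rosa26-HGAL+Sca1-Cre mice (n = 4), pre-tumoral spleens of Rosa26-HGAL+Sca1-Cre mice (n = 3), and spleens of wild-type mice (n = 3), for which the labels name neither allele. HGAL is an adaptor protein of germinal centre B cells. It was expressed from the Rosa26 locus once Cre was active, and the driver limits each model: Aid is expressed in activated B cells, Mb1 (Cd79a) in the B lineage, and Sca1 (Ly6a) in stem and progenitor cells from which B and T cells both arise. Ages were not given in the sources used here. No group carried a Cre driver without HGAL, so the effects of Cre and of HGAL cannot be told apart, and wild type is the control in each such comparison.

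A T cell reads antigen with a receptor whose signal is passed inward by the CD3 chains, while the coreceptors CD4 and CD8 bind the antigen-presenting molecule and bring a kinase to the complex. The kinase ZAP-70 then phosphorylates the scaffold LAT, and adaptors such as SLP-76 (Lcp2) link it to calcium, diacylglycerol and Ras signals. In the spleen, T cells lie around the arterioles beside the B cell follicles, so the summed level of their transcripts in whole tissue moves with their share of all cells. Fewer T cells and less RNA per T cell therefore cannot be told apart in these arrays.

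The promoter windows of the 3 CD3 chains and of Cd27 are shown because the CD3 chains moved together and served as the yardstick below, and Cd27 was the member outside them that followed them most closely. Each window runs from 250 bases before to 50 after the transcription start (RefSeq, GRCm38.p6), in the direction of the gene. Cd3d lies on the plus strand at chr9:44981536-44981835, Cd3e on the minus strand at chr9:45009562-45009861, Cd3g on the minus strand at chr9:44980382-44980681 and Cd27 on the minus strand at chr6:125236978-125237277. The Cd3g and Cd3d windows point away from each other, 854 bases apart. Capitals mark matches to 4 short motifs on either strand: GGAAGT for ETS factors, TGTGGT for RUNX factors, AGATAA for GATA factors and CTTTGA for TCF and LEF factors.
Cd3d: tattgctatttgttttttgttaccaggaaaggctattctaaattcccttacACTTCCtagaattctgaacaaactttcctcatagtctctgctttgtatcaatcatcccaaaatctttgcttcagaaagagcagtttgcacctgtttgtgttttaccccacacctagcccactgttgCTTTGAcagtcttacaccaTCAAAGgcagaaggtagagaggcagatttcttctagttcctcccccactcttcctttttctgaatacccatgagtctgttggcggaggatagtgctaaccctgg
Cd3e: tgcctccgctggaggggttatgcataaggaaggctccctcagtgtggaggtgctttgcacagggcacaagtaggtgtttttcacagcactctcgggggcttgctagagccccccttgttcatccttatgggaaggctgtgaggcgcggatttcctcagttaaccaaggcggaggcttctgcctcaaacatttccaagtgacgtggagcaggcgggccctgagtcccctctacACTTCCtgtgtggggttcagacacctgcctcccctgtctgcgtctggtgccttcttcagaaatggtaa
Cd3g: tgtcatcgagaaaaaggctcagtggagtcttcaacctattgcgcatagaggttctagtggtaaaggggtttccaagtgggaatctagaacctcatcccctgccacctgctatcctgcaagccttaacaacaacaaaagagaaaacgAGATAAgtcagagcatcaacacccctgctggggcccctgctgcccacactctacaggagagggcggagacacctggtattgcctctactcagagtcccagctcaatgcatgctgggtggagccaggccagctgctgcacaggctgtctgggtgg
Cd27: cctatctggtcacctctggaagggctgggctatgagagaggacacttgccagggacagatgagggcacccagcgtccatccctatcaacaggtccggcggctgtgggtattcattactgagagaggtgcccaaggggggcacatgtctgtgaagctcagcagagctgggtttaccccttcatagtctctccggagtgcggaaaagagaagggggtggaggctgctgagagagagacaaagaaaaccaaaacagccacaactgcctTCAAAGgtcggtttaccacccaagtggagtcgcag
Cd3d held 1 ETS and 2 TCF/LEF matches, Cd3e held 1 ETS match, Cd3g held 1 GATA match and Cd27 held 1 TCF/LEF match. Over the 43 windows of the 28 members with an entry, the ETS motif was found in 34.9%, against 23.8% of 32851 windows of all genes, and the TCF/LEF motif in 23.3% against 16.0%. The GATA and RUNX motifs each stood in 6 of the 43 member windows, against 11.2% of all windows for GATA and 16.8% for RUNX. No motif was shared by all 3 CD3 windows, and these matches describe letters and not binding.

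Values are log2 expression as the authors deposited them, and ± after a difference is its standard error. Levels of different genes were not compared. Single values of some members came near background. The lowest was 4.75, for Cd40lg in Aid-Cre tumour replicate 2, beside array 40th percentiles of 4.72 to 4.90 over all probe sets. The lowest values of Dapl1 (5.09), Cd226 (5.16) and Trat1 (5.25) compare with array medians of 5.23 to 5.40. The B cell marker Cd79a stood at 12.17 ± 0.19 (SD, n = 3) in wild type. Gcsam, the mouse gene for HGAL, was not called in any comparison, and averaged (± SD) 5.57 ± 0.40 for Aid-Cre, 5.52 ± 0.30 for Mb1-Cre and 7.09 ± 2.23 for Sca1-Cre tumours, 5.83 ± 0.14 for pre-tumour spleens and 5.76 ± 0.35 for wild type. Whether its probes read the transgene was not tested. Y-linked genes were expressed in 1 of 4 Aid-Cre tumour, 4 of 5 Mb1-Cre tumour, 2 of 4 Sca1-Cre tumour, 1 of 3 pre-tumour and 3 of 3 wild-type arrays. Transcripts of exocrine pancreas, a tissue beside the spleen, reached 2.77 over the mean of wild type in replicate 2 of the Mb1-Cre tumours and 0.85 in wild type replicate 2. That wild-type array was also the highest of the 3 in most T cell genes, which touches every comparison with wild type.

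T cell genes varied more between these spleens than most genes did. The median SD of a member over the 19 arrays was 0.695, against 0.191 for all genes, and 40 of 40 members lay above that figure. Much of it was spread within groups: Aid-Cre tumour replicate 2 held the lowest value of 28 of the 40 members, while the highest value fell in Sca1-Cre tumour replicate 1 for 11 members, in pre-tumour replicate 1 for 10 and in Sca1-Cre tumour replicate 3 for 9. By limma's moderated F-test over the 5 groups, 0 of 40 members were called at an adjusted p under 0.05, beside 0.0451% of all genes. Cd4 came closest (adjusted p = 0.134), ahead of Cd3e (adjusted p = 0.222) and the inhibitory adaptor Sit1 (adjusted p = 0.226), both from the same limma test.

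**Figure D1:**
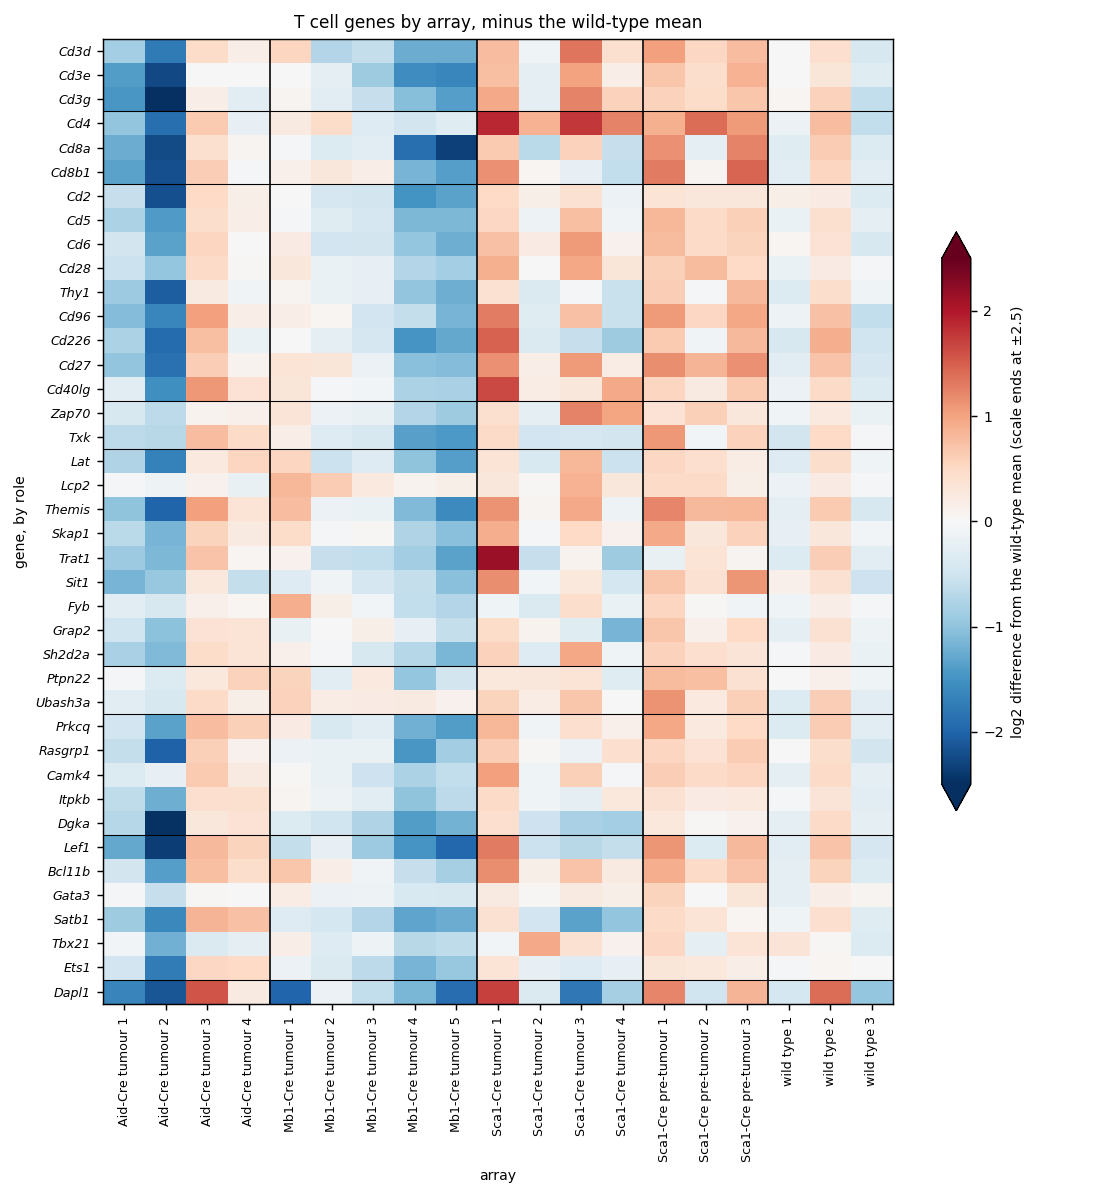
Heat map of the 40 measured members (rows, by role) in the 19 arrays (columns), as log2 value minus the wild-type mean; the colour scale ends at 2.5 in either direction. Aid-Cre tumour replicate 2 holds the lowest value of 28 members, while all 3 pre-tumour columns are mostly red.

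The CD3 chains carry the receptor's signal into the cell. Cd3e measured 8.83, 7.97, 10.22 and 10.25 in the Aid-Cre tumours, 10.22, 9.99, 9.35, 8.69 and 8.60 in the Mb1-Cre tumours, 11.00, 10.00, 11.24 and 10.39 in the Sca1-Cre tumours, 10.92, 10.68 and 11.11 in the pre-tumour spleens and 10.24, 10.53 and 9.94 in wild type. The pre-tumour arrays lay above every wild-type array. Both B cell-driven tumour groups spread from wild-type levels to well below them, and the Sca1-Cre tumours straddled wild type. Cd3d and Cd3g had their lowest value in Aid-Cre tumour replicate 2 and their highest in Sca1-Cre tumour replicate 3, as Cd3e had.

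Cd4, the coreceptor of helper and regulatory T cells, had the smallest p of the F-test among the members. It measured 7.31, 6.40, 8.94 and 8.07 in the Aid-Cre tumours, 8.51, 8.75, 7.97, 7.82 and 7.98 in the Mb1-Cre tumours, 10.16, 9.15, 10.06 and 9.52 in the Sca1-Cre tumours, 9.17, 9.69 and 9.34 in the pre-tumour spleens and 8.13, 9.05 and 7.68 in wild type. Every array of both Sca1-Cre groups was higher than every array of the 3 other groups, with wild type replicate 2 the nearest. The order of the group means was Sca1-Cre tumour, pre-tumour, wild type, Mb1-Cre tumour and Aid-Cre tumour, and the first pair and the last 3 overlapped among themselves.

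Cd8a, a chain of the coreceptor of cytotoxic T cells, did not follow Cd4. It measured 8.08, 7.07, 9.71 and 9.38 in the Aid-Cre tumours, 9.27, 8.97, 9.03, 7.43 and 6.98 in the Mb1-Cre tumours, 9.96, 8.63, 9.88 and 8.73 in the Sca1-Cre tumours, 10.44, 9.07 and 10.55 in the pre-tumour spleens and 8.9996, 9.95 and 8.97 in wild type. No 2 groups were separated in Cd8a, and pre-tumour replicate 2 sat among the wild-type arrays.

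**Figure D2:**
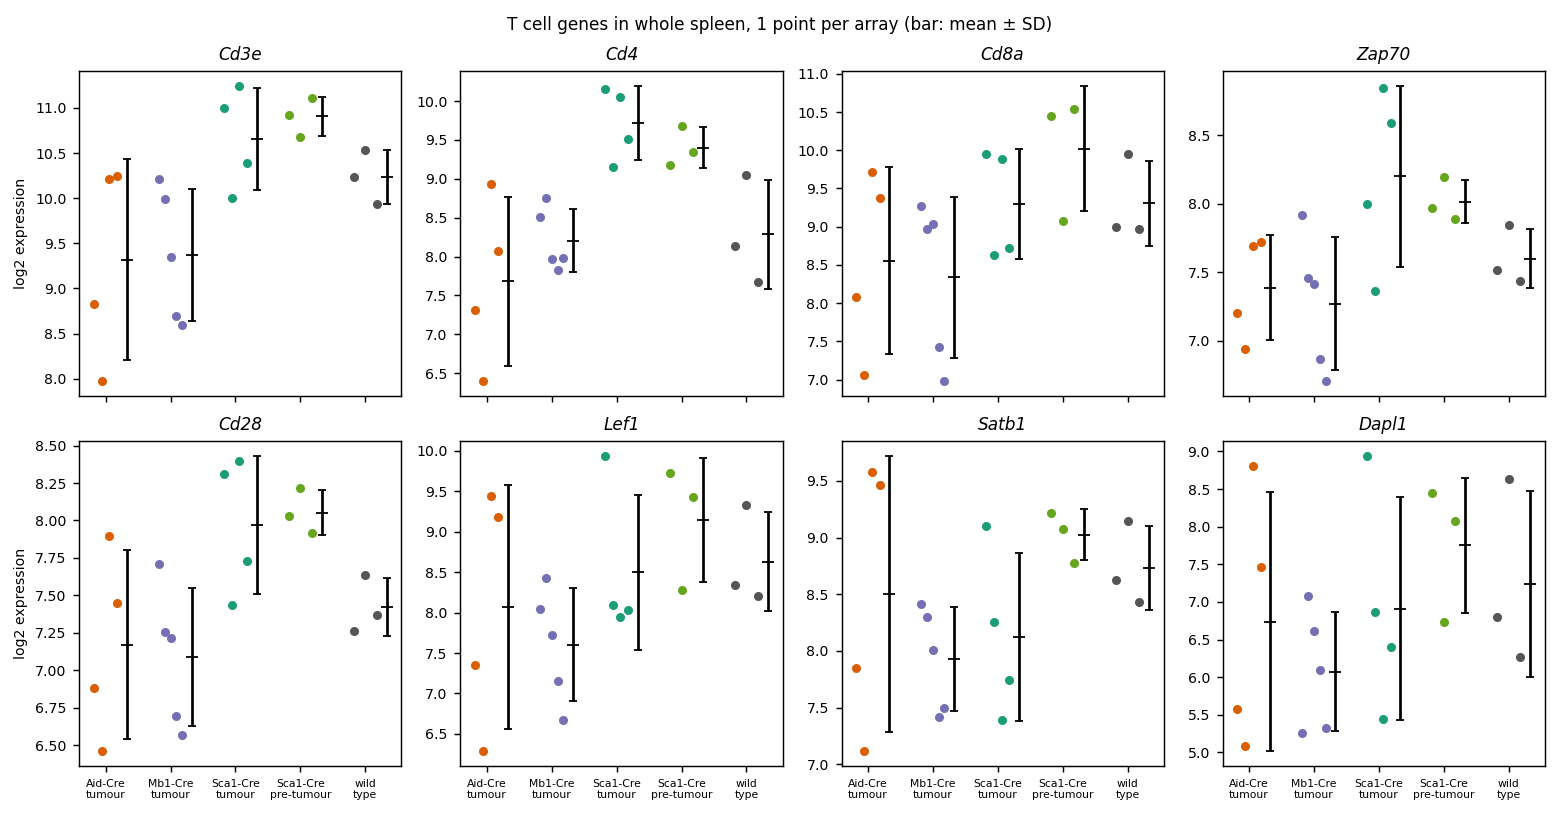
Log2 expression of 8 members in each array, 1 point per array, with the mean and SD of each group beside the points. In Cd4 the Sca1-Cre tumour and pre-tumour points all lie above the points of the other groups, and in Satb1 the Sca1-Cre tumours spread from 7.39 to 9.10.

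Aid-Cre tumours had lower levels of most T cell genes than wild type, without a member passing the test. Of 40 members 38 were lower and 2 higher, with a median difference of -0.35, beside 0.01 for all genes. By limma 0 members were called, beside 0.018% of all genes. Unadjusted, 0 members had p under 0.05, beside 3.95% of all genes with such a p and higher and 4.35% with such a p and lower. Groups did not overlap in 0 members, beside 3.75% of all genes with every array higher and 3.45% with every array lower. The CD3 chains were all lower, by 0.50 to 1.11, and Cd3g showed the smallest p (-1.11 ± 0.57, SE; limma adjusted p = 0.632). Next came Sit1, an adaptor that restrains receptor signalling (-0.61 ± 0.37), Tbx21, the transcription factor T-bet of type 1 helper cells (-0.47 ± 0.30), and the surface glycoprotein Thy1 (-0.70 ± 0.45), with limma adjusted p of 0.699, 0.717 and 0.722.

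That direction rested on part of the group. Replicates 1 and 2 were low and replicates 3 and 4 lay near or above wild type, and without replicate 2 the members split 20 higher and 20 lower, with a median of 0.01. The median was -0.20 without replicate 1 and -0.61 without replicate 3. It was -0.56 without replicate 4, and -0.13 without wild type replicate 2. The same 2 low arrays were low in B cell genes: the mean of 13 B cell markers stood at -1.26, -3.52, 0.25 and 0.08 from the wild-type mean in replicates 1 to 4, and their neutrophil markers were high, at 1.73 and 2.33, against -1.83 and -1.76 in replicates 3 and 4. The part of these other cells in the T cell values was not tested.

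Mb1-Cre tumours had lower levels of the same kind, again with 38 of 40 members lower and 2 higher and a median of -0.47, beside 0.00 for all genes. No member was called by limma (0 of 40), beside 0% of all genes. Unadjusted, 1 member had p under 0.05 and it was higher, beside 5.13% of all genes with such a p and higher. In 3 members the tumour arrays were all lower than the lowest wild-type array, beside 5.38% of all genes: Dgka, the kinase that consumes diacylglycerol (-0.83 ± 0.49), Satb1, a chromatin organiser of T cell genes (-0.81 ± 0.49), and the transcription factor Ets1 (-0.65 ± 0.38). That share of 7.5% is near the background. Ets1 measured 10.08, 9.87, 9.57, 9.06 and 9.27 in the tumours, against 10.17, 10.28 and 10.22 in wild type, where it was nearly constant. Cd5, a receptor that dampens T cell receptor signals, was lower by 0.61 ± 0.37.

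The 2 members that went the other way were Lcp2 and Ubash3a (0.26 ± 0.25). Lcp2, the adaptor SLP-76, measured 11.11, 10.92, 10.54, 10.37 and 10.43 in the Mb1-Cre tumours, against 10.13, 10.49 and 10.22 in wild type. The groups overlapped at replicates 4 and 5, and the difference was 0.39 ± 0.18 (limma adjusted p = 0.440). SLP-76 is also known from myeloid cells and platelets. In the same arrays 14 of 14 neutrophil markers were higher than in wild type, with a median of 2.23. By array their mean stood at 2.02, 1.90, 1.79, 2.48 and 2.65 from wild type in replicates 1 to 5. Lcp2 and the mean of the macrophage and red pulp markers were highest in replicates 1 and 2. The neutrophil mean was highest in replicates 4 and 5. The 13 B cell markers were lower in 13 of 13, and by array their mean ran from -2.06 to -0.47. Macrophage and red pulp markers were higher in 13 of 14, with a median of 0.75. By array their mean stood at 1.315, 1.357, 0.02, 0.467 and 0.652 from wild type in replicates 1 to 5. The mean of the erythroid markers stood at -2.52, 0.01, 0.90, 1.28 and 1.11 from wild type in Mb1-Cre tumour replicates 1 to 5, where the mean of the members stood at 0.13, -0.16, -0.31, -0.94 and -1.06. The arrays high in erythroid genes were the ones low in T cell genes. The part of these other cells in the member values was not tested. Leaving out single arrays moved the members' median between -0.62 without wild type replicate 3 and -0.29 without wild type replicate 2. It moved the count of members with every array lower to 9 without Mb1-Cre tumour replicate 1, beside 8.49% of all genes. Without wild type replicate 3 that count was 7, beside 11.7% of all genes.

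Sca1-Cre tumours showed a mixed picture against wild type, with Cd4 in front. Of 40 members 29 were higher and 11 lower, with a median of 0.25, beside 0.00 for all genes. Cd4 was higher by 1.44 ± 0.46, a 2.71-fold difference (limma adjusted p = 0.246), and it was the 1 member with every array higher, beside 6.21% of all genes. By limma 0 members were called and 1 had an unadjusted p under 0.05, beside 0.0406% of all genes called and 6.12% with such a p and higher. Lcp2 (0.37 ± 0.19), Zap70, the kinase that binds the phosphorylated CD3 chains (0.60 ± 0.32), the costimulatory receptor Cd28 (0.54 ± 0.32), Cd40lg, the ligand by which helper T cells activate B cells (0.76 ± 0.48), and the adhesion receptor Cd6 (0.53 ± 0.38) followed, with limma adjusted p between 0.498 and 0.660. Cd8a stood at -0.01 ± 0.66 and Cd8b1 at 0.09 ± 0.62, with wider errors than Cd4, so a difference somewhat smaller than that of Cd4 could be missed. Other cell types moved in the same tumours: B cell markers were lower than wild type in 13 of 13 (median -0.87), erythroid markers lower in 11 of 11 (median -0.67) and neutrophil markers higher in 14 of 14 (median 0.67). By array the B cell mean stood at -0.02, -0.43, -2.22 and -0.63, so replicate 3 was the lowest. The part of these cells in the T cell values was not tested.

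Zap70 measured 7.996, 7.36, 8.85 and 8.59 in the Sca1-Cre tumours, against 7.52, 7.84 and 7.44 in wild type. Replicate 2 lay below every wild-type array, and replicates 1, 3 and 4 lay above them. The 4 tumours also differed among themselves in genes of resting T cells. Satb1 measured 9.10, 8.25, 7.39 and 7.74 in the Sca1-Cre tumours, against 8.62, 9.15 and 8.43 in wild type, and Dapl1, a gene of resting T cells in the mouse, measured 8.94, 6.87, 5.44 and 6.40 in the same tumours, against 6.80, 8.63 and 6.27 in wild type. Replicate 1 sat at the top of both and replicate 3 at the bottom. Without wild type replicate 2 the count of members with every array higher was 13 rather than 1, beside 10.1% of all genes, and the median was 0.44. It was 0.39 without Sca1-Cre tumour replicate 4, 0.13 without replicate 1 and 0.11 without wild type replicate 3.

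Pre-tumour Sca1-Cre spleens were higher than wild type in 40 of 40 members, with a median of 0.52, beside 0.01 for all genes. The sizes ran from 0.08 (Trat1, a receptor-associated adaptor) to 1.12 (Cd4). In 15 members, 37.5%, every pre-tumour array lay above every wild-type array, beside 8.35% of all genes with every array higher: Cd3d, Cd3e, Cd4, Cd2, Cd5, Cd6, Cd28, Cd27, Zap70, Themis, Skap1, Sh2d2a, Ptpn22, Camk4 and Ets1. Of the 40, limma called 0, beside 0.00451% of all genes, and the smallest adjusted p was 0.883. Unadjusted, 2 members had p under 0.05 and were higher, beside 3.07% of all genes: Ubash3a, a phosphatase family member that restrains T cell signals (0.66 ± 0.28), and Cd4 (1.12 ± 0.49).

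Cd27, a costimulatory receptor of the tumour necrosis factor receptor family, measured 9.62, 9.30 and 9.61 in the pre-tumour spleens, against 8.17, 9.16 and 8.03 in wild type. The groups did not overlap, and wild type replicate 2 came close to the lowest pre-tumour array. Ptpn22, a phosphatase that dampens proximal signalling, measured 11.12, 11.09 and 10.71 in pre-tumour spleens, against 10.32, 10.45 and 10.23 in wild type. Cd28 measured 8.03, 8.21 and 7.92 in pre-tumour spleens, against 7.26, 7.64 and 7.37 in wild type. Both groups were narrow in these genes, with a fitted difference of 0.64 ± 0.31 in Ptpn22 and of 0.63 ± 0.34 in Cd28. Without wild type replicate 2 the members that did not overlap numbered 34, beside 15.6% of all genes, and without pre-tumour replicate 2 they numbered 29, beside 13.98%.

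Erythroid markers moved the other way in the same spleens. Their mean stood at -3.03, -1.58 and -0.78 from wild type in the pre-tumour arrays, against 0.10, -0.44 and 0.35 in wild type, and 11 of 11 measured markers were lower with a median of -1.69. B cell markers, at -0.28, 0.11 and -0.09, did not move in step with the T cell members, whose mean stood at 0.72, 0.31 and 0.58. The part of erythroid RNA in the T cell values was not tested.

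**Figure D3:**
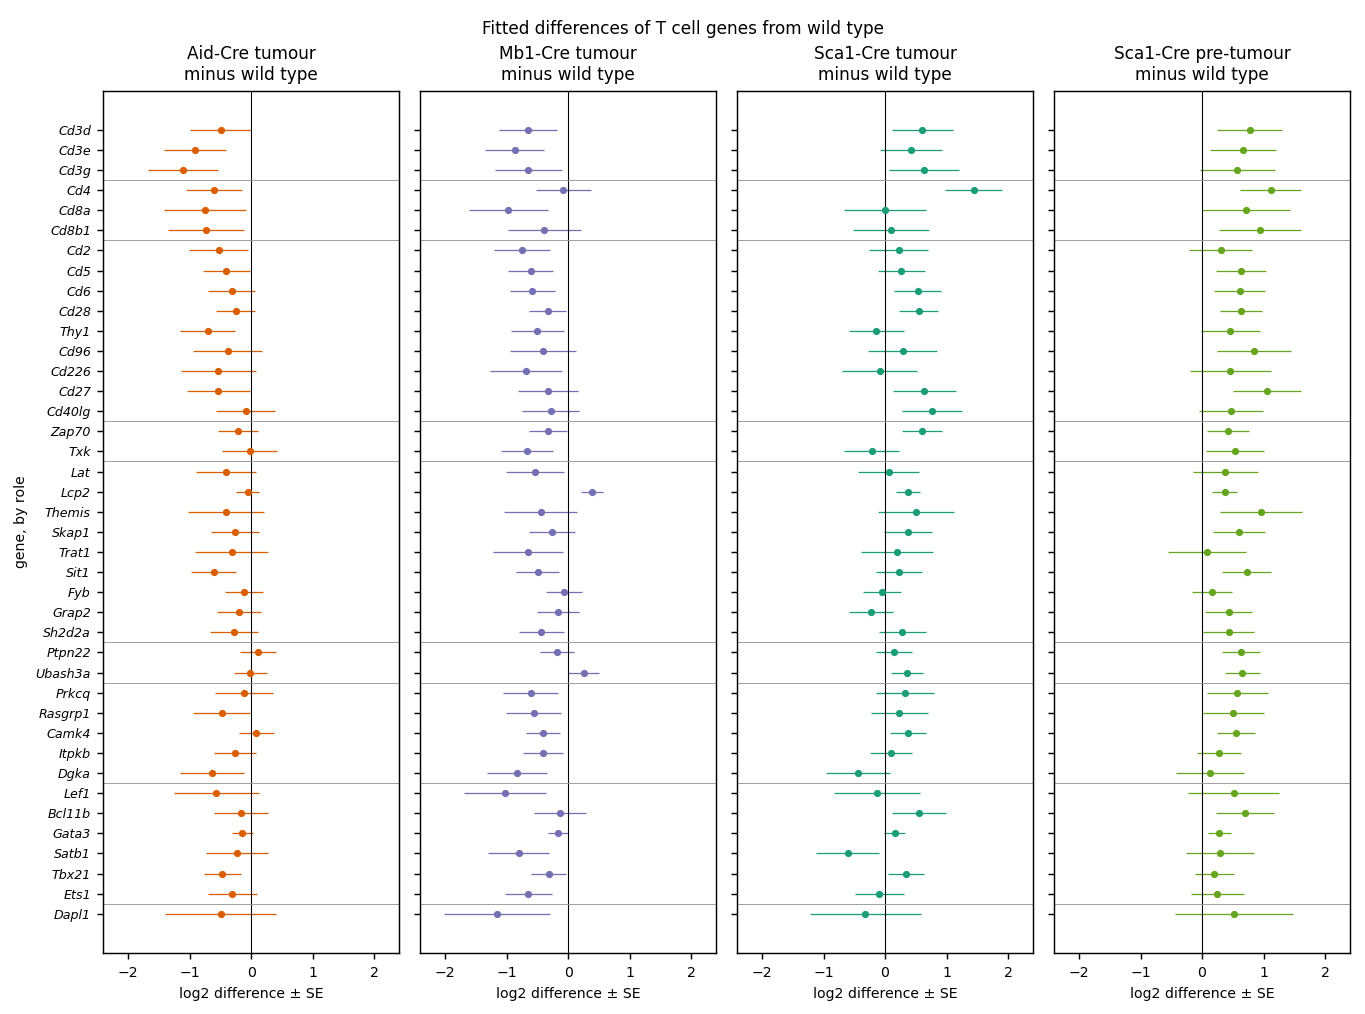
Fitted log2 differences of the 40 members from wild type with their standard errors, 1 panel per group, members by role from top to bottom. In the pre-tumour panel all 40 points lie right of 0, and in the Aid-Cre and Mb1-Cre tumour panels 38 of 40 lie left of it.

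Between the 2 stages of the Sca1-Cre mice, 6 of 40 members were higher and 34 lower in tumour spleens than in pre-tumour spleens, with a median of -0.26, beside -0.01 for all genes. Limma called 0 members, beside 0% of all genes, and 0 had an unadjusted p under 0.05, beside 2.42% of all genes with such a p and higher and 2.93% with such a p and lower. Only Ptpn22 did not overlap, at 10.59, 10.63, 10.67 and 10.03 in tumours, against 11.12, 11.09 and 10.71 in pre-tumour spleens (-0.49 ± 0.29), beside 4.51% of all genes with every array lower. Grap2, an adaptor that binds SLP-76 (-0.67 ± 0.36), Satb1 (-0.90 ± 0.51), the kinase Txk (-0.75 ± 0.44) and Cd8b1 (-0.85 ± 0.62) were also lower on average, with overlapping groups. Cd4 was at 0.32 ± 0.46. The median ran from -0.41 without Sca1-Cre tumour replicate 1 to -0.14 without replicate 2. The count of members with every array lower was 10 in the first case, beside 9.80% of all genes. It was 8 without pre-tumour replicate 2, beside 8.89% of all genes. Other cell types moved between the same spleens. Erythroid markers were higher in tumours in 11 of 11 (median 1.17) and neutrophil markers in 14 of 14 (median 0.85). B cell markers were lower in 13 of 13 (median -0.68). The part of these cells in the T cell values was not tested.

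Sca1-Cre tumours had higher levels of most T cell genes than either B cell-driven tumour group, without a member passing the test on all arrays. Against Aid-Cre tumours 37 of 40 members were higher and 3 lower, with a median of 0.60, beside -0.01 for all genes. Cd4 was 4.12-fold higher (2.04 ± 0.43, limma adjusted p = 0.0743). It came past the threshold without Aid-Cre tumour replicate 3 (2.46, limma adjusted p = 0.0135), the array with the highest Cd4 of its group. Limma called 0 members, beside 0.0451% of all genes, and 11 had an unadjusted p under 0.05 and were higher, beside 7.92% of all genes. Cd3g (1.75 ± 0.52), Tbx21 (0.81 ± 0.27), Zap70 (0.81 ± 0.30) and Cd28 (0.80 ± 0.30) followed Cd4. Cd4 and Gata3, the transcription factor of type 2 helper cells, did not overlap between the groups, beside 2.96% of all genes with every array higher. That count was 7 without Aid-Cre tumour replicate 3, beside 7.01% of all genes, and 6 without Sca1-Cre tumour replicate 2, beside 4.74%. The median was 0.24 without Aid-Cre tumour replicate 2.

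Against Mb1-Cre tumours 38 of 40 members were higher and 2 lower, with a median of 0.72, beside -0.01 for all genes. Cd4 was 2.86-fold higher (1.52 ± 0.41; limma adjusted p = 0.0991) and did not overlap, the 1 member of 40 to do so, beside 3.37% of all genes with every array higher. By limma 0 of 40 members were called, beside 0.0406% of all genes, and 17 had an unadjusted p under 0.05 and were higher, beside 10.4% of all genes. Cd6 (1.11 ± 0.34), Zap70 (0.93 ± 0.28), Cd28 (0.88 ± 0.28) and the calcium-dependent kinase Camk4 (0.78 ± 0.25) had the next smallest p. Mb1-Cre tumour replicate 1 had the highest mean of the members in its group, and without it 16 members did not overlap, beside 6.22% of all genes. With Sca1-Cre tumour replicate 2 left out 5 members did not overlap, beside 5.12% of all genes. With replicate 4 left out 3 did not, beside 4.11%, and with replicate 3 left out 2 did not, beside 7.36%. Neutrophil markers were lower in 14 of 14 in Sca1-Cre than in Mb1-Cre tumours (median -1.50), and their part in the T cell values was not tested. The median was 0.47 without Sca1-Cre tumour replicate 1.

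The B cell-driven tumour groups did not separate from each other. Of 40 members 27 were higher and 13 lower in Aid-Cre tumours than in Mb1-Cre tumours, with a median of 0.12, beside 0.01 for all genes, and the sign of the median turned with single arrays left out, from -0.16 without Aid-Cre tumour replicate 3 to 0.45 without replicate 2. Limma called 0 members, beside 0.0451% of all genes, and 0 members did not overlap, beside 1.1% of all genes with every array higher and 0.938% with every array lower. Lcp2 was the 1 member with an unadjusted p under 0.05, lower in Aid-Cre tumours (-0.45 ± 0.17; limma adjusted p = 0.480), beside 4.32% of all genes with such a p and lower. The comparisons share arrays with each other, so their member values are not independent.

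To set aside how much T cell RNA a spleen held, each gene was also read relative to the mean of Cd3d, Cd3e and Cd3g on the same array. The subtraction narrowed the SD over the 19 arrays in 27 of the other 37 members, and in 20 of 37 it left under 50% of the variance. Cd27 kept 8.45% of its variance, the T cell adaptor Themis 11.6%, Cd8a 18.6% and Cd4 19.7%. A further 7 members kept between 61.7% (Sit1) and 94.7% (Txk). In the other 10 the variance grew: that of Lcp2 grew to 662% of its size before, that of Gata3 to 649%, of the adaptor Fyb to 345%, of Ubash3a to 300%, of Ptpn22 to 241%, of Grap2 to 228%, of Tbx21 to 189%, of Camk4 to 141%, of Itpkb to 124% and of Satb1 to 102%.

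On this scale a gene of unchanged level moves opposite to the CD3 chains, so the median of all genes against wild type, at 0.85 for Aid-Cre, 0.72 for Mb1-Cre and -0.56 for Sca1-Cre tumours and -0.66 for pre-tumour spleens, marks where such genes lie. The median of the 37 members was 0.53, 0.28, -0.33 and -0.15 in the same order, nearer to 0 each time. Limma called 0 of 37 members in any of the 4 comparisons, beside 0.018%, 0.424%, 0.00902% and 0.108% of all genes. Unadjusted, 1 member had p under 0.05 in Mb1-Cre tumours and was higher, beside 6.06% of all genes, and 1 in Sca1-Cre tumours and was lower, beside 1.36%. In Aid-Cre tumours 0 members had such a p, beside 4.2% of all genes higher and 0.0271% lower, and in pre-tumour spleens 0, beside 0.018% higher and 2.65% lower. The error that limma shares across genes was wide here (0.56 to 0.64), against a median of 0.30 to 0.34 for the members' own errors. With own errors 0 members were called either, but 0 of all genes were called in each of the 4 comparisons, so nothing is read from that count.

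Relative to CD3, Cd4 stood at -0.09, -0.07, -0.56 and -0.28 in the Sca1-Cre tumours, against -1.30, -0.80 and -1.31 in wild type. Every tumour array was higher, by 0.88 on average, beside 0.0135% of all genes with every array higher. The subtraction itself sets that share, since it left 2.84% of all genes higher than wild type, and nothing is read from it. The pre-tumour arrays, at -1.01, -0.21 and -0.86, overlapped wild type. Satb1 and Dgka went the other way in the Sca1-Cre tumours and were lower in every array, beside 1.72% of all genes. Satb1 stood at -1.15, -0.97, -3.23 and -2.06, against -0.81, -0.70 and -0.55 in wild type, and Dgka at 1.47, 1.55, -0.12 and 0.65, against 1.65, 1.92 and 2.07 in wild type. Replicates 3 and 4 were far lower than replicates 1 and 2 in both genes.

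In pre-tumour spleens Cd27 was higher than wild type in every array relative to CD3, beside 0.0676% of all genes, a share set by the subtraction too, at -0.56, -0.60 and -0.60, against -1.26, -0.69 and -0.95 in wild type. Rasgrp1, which activates Ras, Itpkb, a kinase of inositol trisphosphate, Dgka and Satb1 were lower in every array, beside 53.6% of all genes, so their direction is that of most genes on this scale. In Mb1-Cre tumours Lcp2, Fyb, Ubash3a and Bcl11b, a transcription factor of T cell identity, were higher in every array, beside 3.49% of all genes. In Aid-Cre tumours 9 members were higher in every array, beside 1.77% of all genes: Cd40lg, Txk, Themis, Prkcq, Rasgrp1, Camk4, Itpkb, Bcl11b and Satb1. On this scale 99.3% of all genes were higher in Aid-Cre tumours and 98.5% in Mb1-Cre tumours than in wild type, so the direction of these members is that of most genes. In Aid-Cre tumours 8 of the 9 lay below the all-gene median of 0.85, with Themis at 0.43, Rasgrp1 at 0.36 and Bcl11b at 0.68, and Camk4 lay above it at 0.92. In Mb1-Cre tumours Lcp2 (1.11) and Ubash3a (0.98) lay above the all-gene median of 0.72, and Fyb (0.65) and Bcl11b (0.59) below it. Bcl11b stood between -1.24 and -0.78 in the Aid-Cre tumours and between -1.23 and -1.01 in the Mb1-Cre tumours, against -1.95 to -1.58 in wild type.

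**Figure D4:**
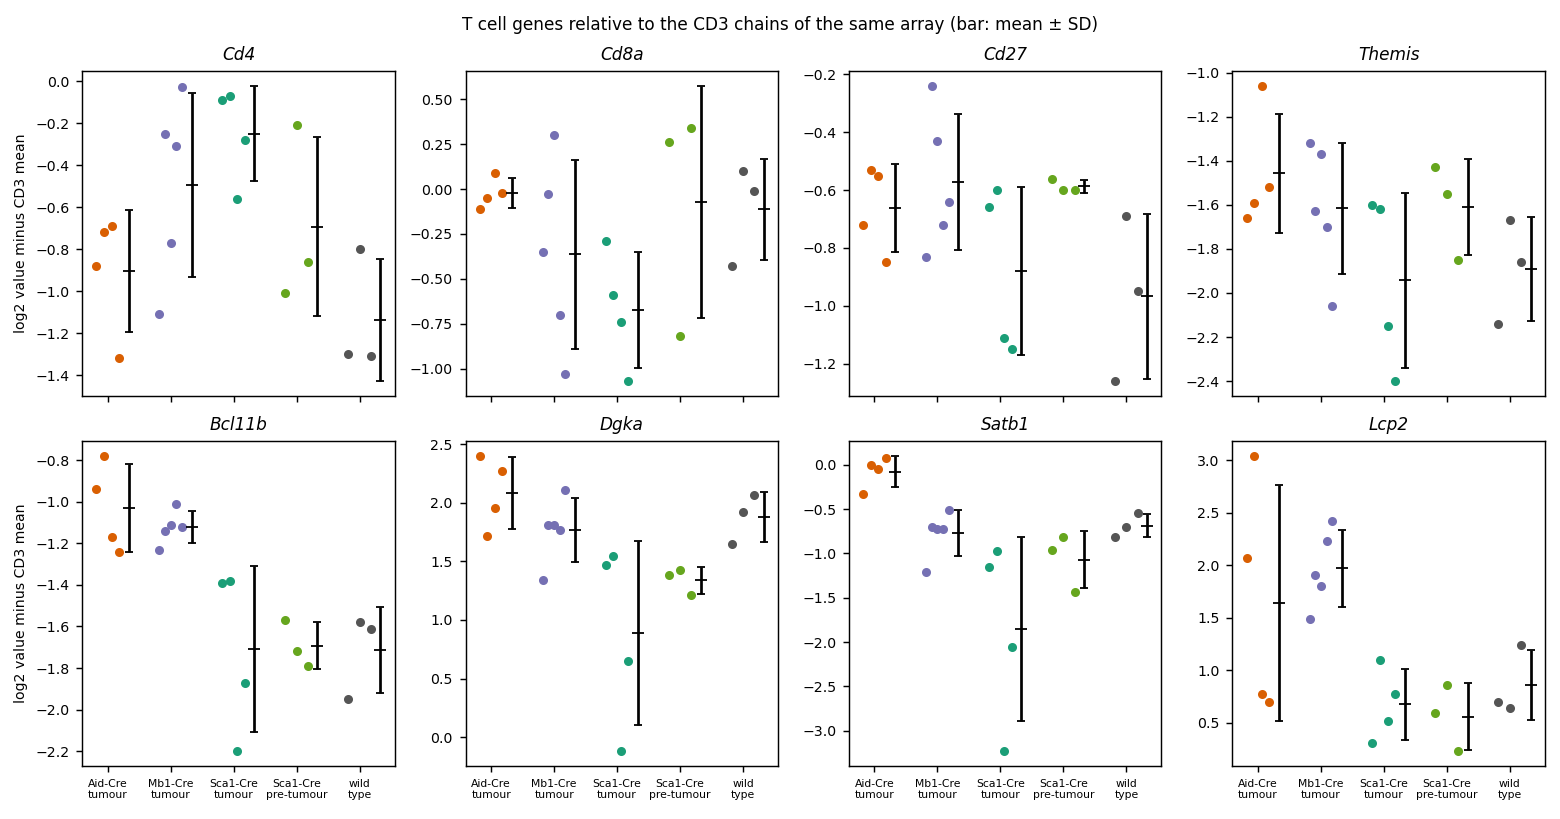
Log2 value of 8 members minus the mean of the 3 CD3 chains on the same array, 1 point per array, with the mean and SD of each group. Cd4 lies higher in all Sca1-Cre tumours than in wild type, and Satb1 and Dgka reach their lowest points in Sca1-Cre tumour replicates 3 and 4.

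The balance of the coreceptors was taken as Cd4 minus Cd8a on each array, whose difference between arrays can be read although the level itself cannot. It was 0.20, 0.52, 0.17 and 0.79 in the Sca1-Cre tumours, against -0.87, -0.90 and -1.30 in wild type. All 4 tumours were higher, by 1.44 on average, and the exact two-sided permutation test gave p = 0.0286, the smallest it can give, with an adjusted p of 0.114 over the 8 comparisons. The Aid-Cre tumours, at -0.77, -0.67, -0.78 and -1.30, lay with wild type, and the Sca1-Cre tumours were higher than them by 1.30 (exact permutation p = 0.0286, again the smallest possible, adjusted p = 0.114).

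Pre-tumour spleens split on this balance, at -1.27, 0.61 and -1.20, and differed from wild type by 0.40 (exact permutation p = 0.800). The Mb1-Cre tumours ran from -1.07 to 1.00, with replicates 4 and 5 high, and differed from wild type by 0.89 (exact permutation p = 0.161). Sca1-Cre tumours stood 1.04 above pre-tumour spleens (exact permutation p = 0.143) and 0.55 above Mb1-Cre tumours (exact permutation p = 0.262). The other 2 comparisons gave 0.14 for Aid-Cre tumours against wild type (exact permutation p = 0.486) and -0.75 for Aid-Cre against Mb1-Cre tumours (exact permutation p = 0.159).

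Other genes of the receptor pathway had smaller median differences than the members. Of 34 further pathway genes 30 were measured, and 0 were called by limma in any of the 8 comparisons. Against wild type they were higher in 6 and lower in 24 in Aid-Cre tumours (median -0.19), higher in 4 and lower in 26 in Mb1-Cre tumours (median -0.25), higher in 12 and lower in 18 in Sca1-Cre tumours (median -0.04), and higher in 25 and lower in 5 in pre-tumour spleens (median 0.16). The unadjusted p was under 0.05 in 1 of 30 in each of these 4 comparisons, which is near or below the background. The gene need not be the same one in each comparison. In Aid-Cre tumours it was lower, beside 4.35% of all genes, and in Mb1-Cre tumours lower, beside 6.2%. In Sca1-Cre tumours it was higher, beside 6.12%, and in pre-tumour spleens higher, beside 3.07%.

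Genes of naive T cell migration and survival, 9 of 10 measured, were lower in 9 of 9 in Sca1-Cre tumours than in pre-tumour spleens, with a median of -0.79. Limma called 0 of them, and 0 had an unadjusted p under 0.05. The smallest p belonged to the transcription factor Foxp1 (-0.91 ± 0.47), the survival gene Bcl2 (-0.81 ± 0.46) and the interleukin-7 receptor Il7r (-0.88 ± 0.51), with overlapping groups. B cell markers were lower in 13 of 13 in the same comparison (median -0.68), and their part in the values of this list was not tested. Against wild type the list was lower in 6 of 9 in Sca1-Cre tumours (median -0.16) and higher in 8 of 9 in pre-tumour spleens (median 0.28). By array its mean stood at 0.65, -0.14, -0.93 and -0.86 from wild type in the Sca1-Cre tumours, so replicates 3 and 4 were the low arrays here as in Satb1 and Dgka.

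Activated and effector T cell genes, 17 of 17 measured, ran the other way in those 2 arrays. Their mean stood at 0.46, 0.44, 1.88 and 1.22 from wild type in the Sca1-Cre tumours and at 0.58, 1.34 and 0.29 in the pre-tumour spleens, against 0.16, 0.09 and -0.25 in wild type. In Sca1-Cre tumours 15 of 17 were higher than wild type with a median of 1.11, and 7 of 17 did not overlap, beside 6.21% of all genes with every array higher. Limma called 0, and 10 of 17 had an unadjusted p under 0.05 and were higher, beside 6.12% of all genes. In pre-tumour spleens 16 of 17 were higher with a median of 0.75, and 7 of 17 did not overlap, beside 8.35% of all genes with every array higher. Cxcr3, a chemokine receptor of effector cells, had the smallest p there (0.85 ± 0.28; limma adjusted p = 0.781). The median difference from wild type was -0.08 in Aid-Cre and -0.01 in Mb1-Cre tumours. The Mb1-Cre tumours were not alike: the mean of the list stood at 0.95 from wild type in replicate 1, higher than in Sca1-Cre tumour replicates 1 and 2, and between -0.34 and 0.01 in the other 4. The mean of the NK cell markers stood at 0.90 in Mb1-Cre tumour replicate 1 and between -0.77 and 0.03 in the other 4. It stood at 0.61, -0.11, 0.66 and -0.08 in the Sca1-Cre tumours. The part of NK cells in the values of this list was not tested.

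**Figure D5:**
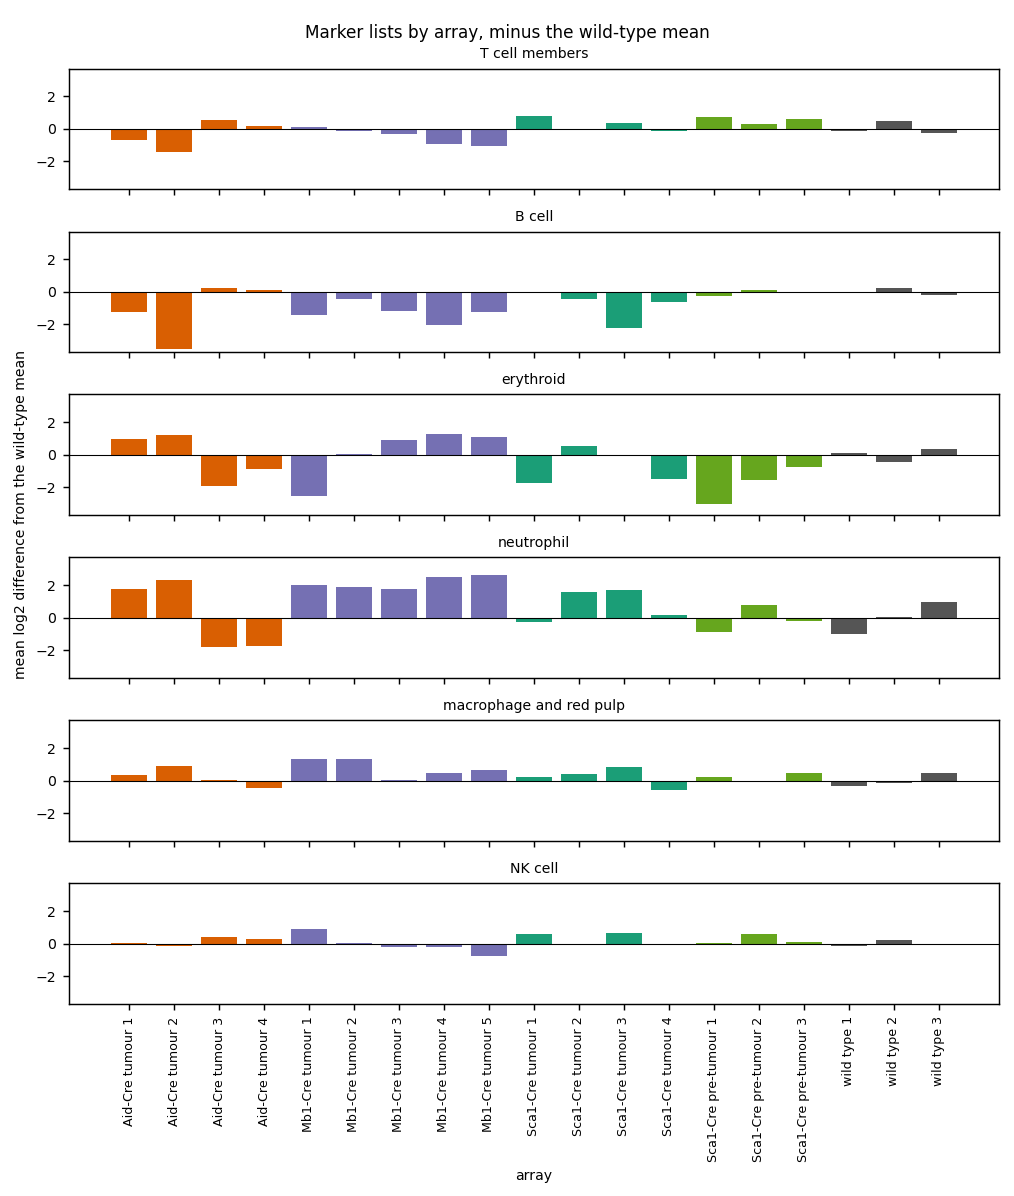
Mean log2 difference from the wild-type mean in each array for the 40 T cell members and for marker lists of 5 other cell classes. The T cell bars of Aid-Cre tumour replicates 1 and 2 are below 0 at -0.72 and -1.45 where their B cell bars are low too, and the pre-tumour T cell bars are above 0 where the erythroid bars reach -3.03.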

How the data were processed

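Total RNA of 19 whole spleens was extracted with Trizol and labelled with biotin for Affymetrix arrays, per the labels' protocols. The submitters' processing notes name RMA and oligo, without versions, as the tools behind the deposited log2 values, made by the authors. They were used as deposited, with 0 columns unused. Values ran from 2.23 to 13.84 and array medians from 5.23 to 5.40; precision is limited by the number of arrays.

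Of 41345 probe sets, 23521 carried 1 symbol in the platform's annotation, 1814 several and 16010 none. The probe set with the highest mean stood for each of 1082 genes with several, which left 22180 genes with no filter on dim genes. For Camk4 and Gata3 the second probe set was dimmer and flat.

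One fit of 5 group means in limma 3.58.1 (R 4.3.3; 14 residual and 2.46 prior degrees of freedom) gave 8 comparisons and the F-test, two-sided, with Benjamini-Hochberg adjustment over 22180 genes and calls at an adjusted p under 0.05. The CD3-relative values went through the same fit after subtraction. Cd4 minus Cd8a was tested by exact permutation of the arrays. The fit was checked on simulated data. Figures were drawn with matplotlib 3.10.9.

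The members and gene lists were chosen with earlier results of these data known. Members were named by rule: Cd3e, Cd4 and Cd8a, any called member, the 6 with the smallest p in a comparison and the first of each role in the F-test. Members named for arrays that did not overlap, for a single array, or relative to CD3 were chosen after their values were seen, as were Trat1, Cd27 and Dapl1 as examples. Each array is a separate biological replicate per the labels. Replicate numbers did not pair the arrays: over 33 same-numbered pairs from different groups the correlation of deviations from the group means had a median of -0.05, against 0.01 over 110 other pairs. The alternatives were quantile normalization, median centring, a filter on dim genes, the mean of probe sets, fits of the compared groups only, a variance trend, array weights, a replicate block, a sex covariate, single arrays left out, and both arrays highest in pancreas transcripts left out.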

Additional observations from a re-analysis of the deposited data

Results flagged for a closer look

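An array stood far from the others of its group in 6 of 123 combinations of a tumour group and a measure, and chance gives about 1 in 20. In the Sca1-Cre tumours replicate 1 was far above the other arrays in the kinase Txk, at 8.68, and in the transcription factor Lef1, at 9.94, while replicate 4 was far below them in Ptpn22, at 10.03. In the Mb1-Cre tumours replicate 1 was far above the others in Ubash3a, at 7.15. In the Aid-Cre tumours replicate 2 was far below the others in Gata3, at 6.17, and replicate 4 was far below them in Cd4 minus Cd8a, at -1.30.

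In 8 members every pre-tumour Sca1-Cre array lay above the wild-type mean and every Mb1-Cre tumour array below it. The gap between the pre-tumour difference and the Mb1-Cre tumour difference from wild type was 1.54 in Cd3e, 1.05 in Cd2, 1.24 in Cd5, 1.22 in Sit1, 1.07 in Rasgrp1, 0.97 in Dgka, 1.10 in Satb1 and 0.90 in Ets1. The rule used the wild-type mean and not the spread of the wild-type arrays. It was run on the members only, so whether 8 is more than other genes would give is not known. The difference between these groups was not tested.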

How the results depend on the processing

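No result changed direction past a threshold under the alternatives run. With array weights, whose estimation stopped short of its tolerance, limma called 1 member in the F-test, where it called 0 without weights. Relative to CD3 it called 12 members in Mb1-Cre tumours and 2 in pre-tumour spleens against wild type. Without weights it called 0 members in both, beside 0.424% and 0.108% of all genes. The share of all genes called with weights is not given here, so nothing is read from these counts. Their cause was not tested. With single arrays left out, the count of called members ran from 0 to 1 for Sca1-Cre against Aid-Cre tumours and from 0 to 1 for the F-test, in both cases 1 without Aid-Cre tumour replicate 3, and was 0 in the other 7 comparisons. For Sca1-Cre against Aid-Cre tumours that member was Cd4 (2.46, limma adjusted p = 0.0135), and the array left out held the highest Cd4 of its group. The share of all genes called with single arrays left out is not given here, so nothing is read from these counts. The median difference of the members ran from 0.39 to 0.76 for pre-tumour spleens against wild type and from 0.11 to 0.44 for Sca1-Cre tumours, and Cd4 minus Cd8a in pre-tumour spleens against wild type from -0.21 to 0.73. As the numbers do not pair the arrays, a fit with replicate number as a block is only an alternative: it called 0 members in each comparison, with a median of -0.31 for Aid-Cre and -0.28 for Mb1-Cre tumours against wild type. Each member's own spread was used as an alternative relative to CD3 after the data were seen. With 3 to 5 arrays per group, a difference must be large to pass.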
